A study of Mus musculus with 36 samples.

Results

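The regions described here are the ATAC-seq peaks that lay in the large stretches of the mouse genome without a coding start. A peak was taken when its centre was more than 200 kb from every start of a protein-coding transcript in the GENCODE M21 basic annotation of mm10, and when its mean count over the 18 libraries was at least 10. Of the 58177 peaks in the table, 56383 reached the count minimum, and 9112 of these (16.2%) met the distance rule. No fold change or call entered the rule, but the count minimum used the stimulated libraries as well as the controls. A peak that was weak in controls could therefore enter through its rise. ATAC-seq counts the insertions of a transposase into open chromatin, so the count in a peak rises with the accessibility of that region.

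Gene deserts are long intervals with few or no coding genes. Many of those in mammals surround genes of development and of the nervous system, and they are known to hold enhancers, which are short regions of open DNA that bind transcription factors and can act on a promoter far away on the same chromosome. AP-1, a dimer of Fos and Jun family proteins, is built within the first hours after a neuron is stimulated, binds a short palindromic word in DNA and is known for opening chromatin at distal enhancers.

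The neurons came from the cortex of CD-1 mouse embryos at embryonic day 15 and were kept in culture for 7 days. All cultures were silenced for 2 h with 100 µM AP-5, which blocks NMDA receptors, and 1 µM TTX, which blocks sodium channels. Stimulated cultures then received 10 ng/ml BDNF, a neurotrophic factor that acts through the receptor TrkB, or 55 mM KCl, which depolarises the membrane, for 1, 6 or 10 h, and the controls of each time stayed silenced for 3, 8 or 12 h in all. Each of the 9 groups had 2 ATAC-seq and 2 RNA-seq libraries, and the labels do not say whether the 2 came from separate cultures, so p-values measure the spread between these libraries, which may be technical. The 6 ATAC-seq controls were used as 1 reference. The RNA-seq libraries held high levels of the neuronal genes Map2 (19767 to 27548 normalised reads) and Tubb3 (9795 to 17370), with the astrocyte gene Gfap at 98.4 to 380 and the microglial gene Aif1 at 12.8 to 35.1. The part of these other cells in the results was not tested, and a change in the number of cells of a type cannot be told apart from a change within cells.

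4 of the peaks are shown first, because the results turn on them. Each sequence is the GRCm38 reference, plus strand, 5′ to 3′, over the central 300 bases of the peak or over the whole peak where it was shorter, and capitals mark the AP-1 word TGANTCA. The first 3 are the peaks with the largest called rise after 1 h of KCl, 10 h of BDNF and 10 h of KCl, and the last is the peak with the largest fall after 1 h of BDNF.
Elmo1 peak, chr13:20433229-20433528: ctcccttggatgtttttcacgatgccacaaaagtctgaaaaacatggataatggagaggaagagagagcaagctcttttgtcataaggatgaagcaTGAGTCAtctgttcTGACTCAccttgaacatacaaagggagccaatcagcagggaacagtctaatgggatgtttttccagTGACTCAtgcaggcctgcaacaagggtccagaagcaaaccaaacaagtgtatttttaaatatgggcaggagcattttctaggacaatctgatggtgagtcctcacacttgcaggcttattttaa
Inhba peak, chr13:15777793-15778092: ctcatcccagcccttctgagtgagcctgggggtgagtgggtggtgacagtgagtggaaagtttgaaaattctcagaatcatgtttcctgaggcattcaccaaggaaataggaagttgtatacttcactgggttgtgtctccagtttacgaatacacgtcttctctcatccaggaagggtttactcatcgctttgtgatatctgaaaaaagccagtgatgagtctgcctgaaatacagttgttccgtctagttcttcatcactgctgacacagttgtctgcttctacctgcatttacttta
Nkain3 peak, chr4:21195725-21196016: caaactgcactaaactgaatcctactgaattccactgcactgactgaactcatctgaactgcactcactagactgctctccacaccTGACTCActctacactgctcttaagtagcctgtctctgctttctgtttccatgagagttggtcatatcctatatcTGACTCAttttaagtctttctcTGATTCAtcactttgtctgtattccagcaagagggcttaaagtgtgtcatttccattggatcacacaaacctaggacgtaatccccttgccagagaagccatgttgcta
Pcmtd1 peak, chr1:7505995-7506190: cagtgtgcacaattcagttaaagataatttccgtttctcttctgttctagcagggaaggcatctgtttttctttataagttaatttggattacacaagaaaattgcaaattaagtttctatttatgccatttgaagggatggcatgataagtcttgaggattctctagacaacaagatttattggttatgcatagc
The Elmo1 and Nkain3 peaks held 3 AP-1 words each. The central 300 bases of the Inhba peak held none, although the whole peak did hold the word, and the Pcmtd1 peak held none over its whole length. Peaks are called here by their nearest coding gene, which is a name and not a target.

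The gene-desert peaks were small, weak and poor in CpG. Their median width was 325 bp against 375 bp over all tested peaks, and their median mean count was 23.8 against 29.9. GC content in the central 300 bases had a median of 42.0% against 48.7%, and the median number of CpG dinucleotides was 2 against 5. Peaks within 1 kb of a coding start had a median GC content of 66.7% and 28 CpG dinucleotides. The median distance of the gene-desert peaks to the nearest coding start was 364 kb, 2811 of them (30.8%) were over 500 kb away, and 665 (7.3%) were over 1000 kb away. The label of gene desert did not hold for all of them. While 6169 (67.7%) lay outside every annotated gene, 1849 (20.3%) lay inside the body of a long coding gene, 817 (8.97%) lay in the body of a noncoding gene and 277 (3.04%) lay within 1 kb of a noncoding start.

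The peaks fell into 1024 intervals between neighbouring coding starts, with a median of 7 peaks per interval. A total of 355 intervals held at least 10 peaks, and these held 6320 of the peaks (69.4%). They were found on 20 chromosomes, with 772 on chromosome 1, 763 on chromosome 3 and 144 on chromosome 19.

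At the library level, the share of all reads in peaks that fell in gene-desert peaks was lowest in the controls. It was 7.26 to 7.65% in the 6 control libraries (median 7.43%), 7.88 to 8.85% in the 6 BDNF libraries (median 8.0%) and 8.57 to 9.39% in the 6 KCl libraries (median 8.83%). The control range did not overlap with either stimulated range. Over the peaks of the set that were called in no comparison, the share was 4.89 to 5.08% in controls, 4.65 to 5.3% after BDNF and 5.45 to 5.94% after KCl. These peaks were chosen by the calls themselves, so the last 3 ranges are a description only. Reads within 1 kb of a coding start moved the other way, from 56.6 to 57.7% in controls to 53.2 to 55.5% after BDNF and 51.1 to 54.4% after KCl. These shares need no scaling between libraries.

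More gene-desert peaks were gained with BDNF than with KCl at 1 and 6 h, and gains outnumbered losses in each of the 6 comparisons with controls. Peaks were called at an adjusted p below 0.1 in edgeR's quasi-likelihood test over all 56383 tested peaks, and gained and closing stand for called peaks with higher and lower accessibility than controls. After 1 h of BDNF, 1321 gene-desert peaks were gained (14.5%, against 11.2% of all tested peaks) and 775 were closing (8.51% against 5.2%). After 6 h of BDNF, 1067 were gained (11.7% against 7.33%) and 273 were closing (3.0% against 2.07%). After 10 h of BDNF, 938 were gained (10.3% against 6.23%) and 179 were closing (1.96% against 2.04%).

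Closing peaks after BDNF were most numerous at 1 h, with 775 against 179 at 10 h, while the number of gained peaks changed less. Over all tested peaks the closing share also fell, from 5.2% to 2.04%. The 10 h libraries were shallower, with 2.02 and 2.78 M reads in peaks against 3.82 and 4.91 M at 1 h. The part of depth in these counts was not tested. With limma in place of edgeR's test, 6.49%, 1.88% and 3.63% of gene-desert peaks were closing at 1, 6 and 10 h. The direct test of 10 h against 1 h called only 50 gene-desert peaks higher (0.549%). After 1 h of KCl, 543 gene-desert peaks were gained (5.96% against 4.88%) and 143 were closing (1.57% against 3.08%). At 6 h of KCl, 707 were gained (7.76% against 4.65%) and 118 were closing (1.29% against 2.09%). After 10 h of KCl, 768 were gained (8.43% against 4.98%) and 117 were closing (1.28% against 2.09%). Gained peaks were thus a larger part of the gene-desert set than of all peaks in all 6 comparisons, and closing peaks were a smaller part of it in the 3 KCl comparisons. At 10 h the order of the stimuli depended on the scaling. LOESS offsets gave 938 gained with BDNF and 768 with KCl, TMM factors gave 1365 and 1475, and DESeq2 size factors gave 1323 and 1387. In total 3347 gene-desert peaks (36.7%) were called in at least 1 of the 6 comparisons, against 30.1% of all tested peaks. The 6 comparisons share their controls.

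Most called peaks were separated from the controls library by library. The calls used these same libraries and favour such a separation, so the shares are a description only. Of the gained gene-desert peaks, 92.1% after 1 h of BDNF and 87.9% after 10 h of KCl had both stimulated libraries above all 6 controls, and of the closing peaks 75.2% and 79.5% had both below all 6. The median log2 fold change of gained peaks was 1.53 after 1 h of BDNF and 1.05 after 1 h of KCl. Counts of calls depended on single libraries. Without library A or without library B, the calls fell from 686 to 143 or 229 at 1 h of KCl, and from 825 to 195 or 497 at 6 h of KCl, where library B was the shallowest of all with 1.24 M reads in peaks. At 6 h of BDNF they fell from 1340 to 715 or 815, at 10 h of KCl from 885 to 341 or 448, at 1 h of BDNF from 2096 to 1223 or 1106, and at 10 h of BDNF from 1117 to 589 without library A. The scaling also set the number of gains under KCl. With TMM factors in place of LOESS offsets, 1475 peaks were gained after 10 h of KCl and 1244 after 6 h. At 1 h of BDNF, gains made up 63.0% of the called gene-desert peaks with LOESS offsets, 74.3% with TMM factors and 73.3% with DESeq2 size factors.

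The share of gained peaks grew with distance from coding starts after 6 and 10 h of both stimuli. After 10 h of BDNF it was 1.37% within 1 kb, 5.49% at 1 to 10 kb, 6.59% at 10 to 50 kb, 8.02% at 50 to 200 kb and 10.3% over 200 kb. For 10 h of KCl the same classes had 1.6%, 3.89%, 4.77%, 6.51% and 8.43%. Early KCl differed in shape, since 5.32% of peaks within 1 kb were gained after 1 h, close to the 5.96% of gene-desert peaks and above the 3.68% at 1 to 10 kb. Closing peaks after 1 h of BDNF also became more frequent with distance, from 2.72% within 1 kb to 8.51% over 200 kb. Peaks just outside and just inside the limit had close shares, with 13.9% gained after 1 h of BDNF at 150 to 200 kb and 15.6% at 200 to 250 kb.

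**Figure D1:**
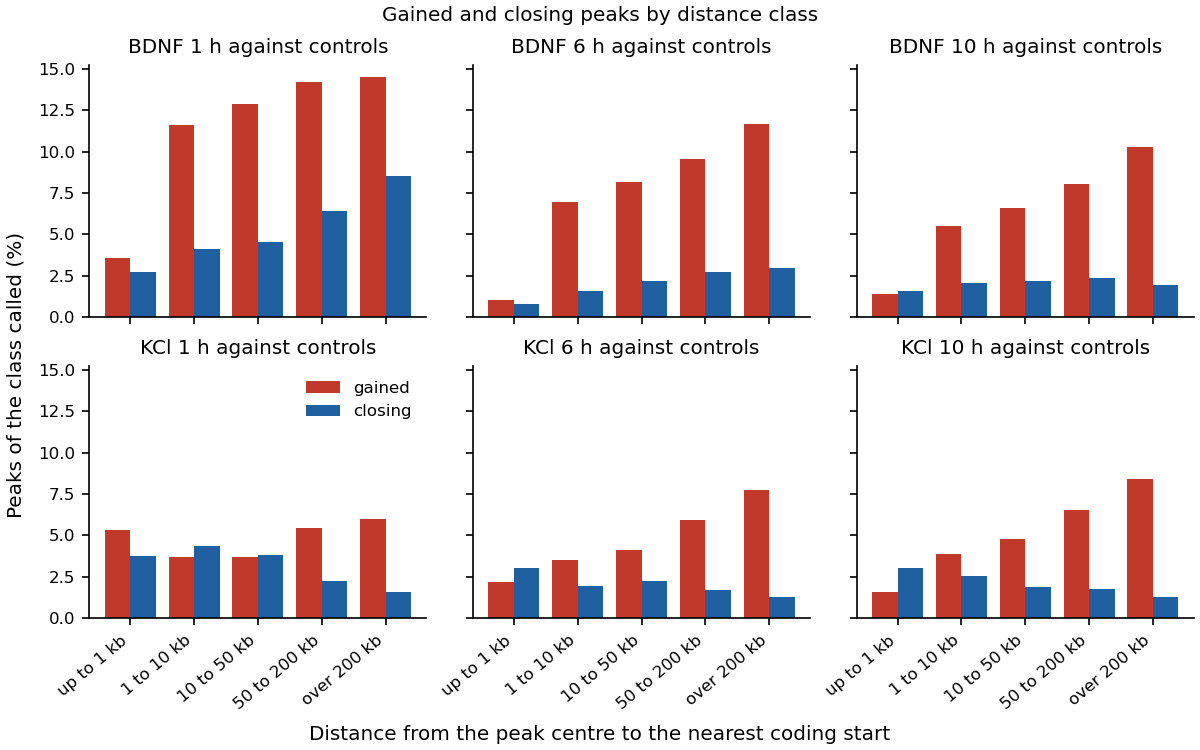
Percentage of tested peaks called as gained (red) or closing (blue), by distance from the peak centre to the nearest coding start, in a panel for each comparison with the 6 controls. Gains over 200 kb reached 14.5% after 1 h of BDNF and 8.43% after 10 h of KCl, and within 1 kb they were 3.56% and 1.6%.

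After 10 h of BDNF, gains were also more frequent in gene-desert peaks than in other peaks of like strength. Among peaks with a mean count of 20 to 40, 12.4% of gene-desert peaks and 7.09% of the other peaks were gained after 10 h of BDNF. Among those with a mean count of 80 or more, 6.8% of the 485 gene-desert peaks and 2.55% of the other peaks were gained. The other peaks include those within 1 kb of a coding start, which had a median mean count of 112. After 1 h of BDNF the gained shares were 13.3% against 12.4% at a mean count of 10 to 20, and 13.2% against 5.25% at 80 or more. Peaks at 50 to 200 kb had 14.2% gained at that time, close to the 14.5% of gene-desert peaks. Closing after 1 h of BDNF had no single direction with strength. It was found in 11.7% of gene-desert peaks with a mean count of 10 to 20, where the other peaks had 8.54%, in 5.76% of those with 20 to 40, in 7.64% of those with 40 to 80 and in 9.9% of those with 80 or more. After 10 h of BDNF, 11.4% of the peaks outside every annotated gene were gained, 7.68% of those in a coding body, 8.57% of those in a noncoding body and 8.66% of those at a noncoding start. The order was not the same after 1 h of KCl, with 5.72%, 6.17%, 7.47% and 5.42%.

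Most gene-desert peaks that opened with BDNF, and most of those that opened after 6 and 10 h of KCl, held the AP-1 word. The word TGANTCA, which reads the same on both strands, was found in the central 300 bases of 24.3% of gene-desert peaks, 20.8% of peaks at 50 to 200 kb, 16.3% of all tested peaks and 3.67% of peaks within 1 kb of a coding start. Of the 1321 gene-desert peaks gained after 1 h of BDNF, 1000 held it (75.7%), against 34 of the 775 closing peaks (4.39%) and 16.8% of those not called. The share among gained peaks was 78.8% and 78.0% at the later BDNF times (6 and 10 h). For KCl it was 45.1%, 68.5% and 68.0% in the order of the times. The other tested peaks that were gained had somewhat lower shares, at 63.0%, 74.8% and 71.9% for BDNF and 38.2%, 57.0% and 61.7% for KCl, and of their closing peaks after 1 h of BDNF 4.26% held the word. A match to the word is a description of the sequence and does not show that the factor was bound.

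Gained peaks were counted by the number of words. Of the 6902 gene-desert peaks with no word, 4.65% were gained after 1 h of BDNF, of the 1782 with 1 word 39.5%, of the 363 with 2 words 67.2% and of the 65 with 3 or more words 81.5%. None of the 363 peaks with 2 words or of the 65 with more was closing in that comparison. After 1 h of KCl the same classes had 4.32%, 9.99%, 14.6% and 21.5% gained, and after 10 h of KCl 3.56%, 20.1%, 37.5% and 41.5%. The count minimum bears on these shares, since it was set on the mean over all 18 libraries. In the controls alone, a mean scaled count of 10 was reached by 97.3% of the peaks with no word, 72.1% with 1 word, 44.6% with 2 words and 17 of the 65 with 3 or more (26.2%), so that most peaks with 2 or more words were in the set through their stimulated libraries.

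The levels in single libraries are given for the same classes as a description. Values are scaled counts, that is counts brought to a common depth with the LOESS offsets, and each is the median over the peaks of a class in 1 library. Peaks with 3 or more words had medians of 5.83 to 8.09 in the 6 controls, 28.5 and 34.1 after 1 h of BDNF, 27.4 and 28.4 after 6 h, and 22.9 and 23.1 after 10 h. The same peaks had 9.1 and 13.7 after 1 h of KCl, 15.8 and 16.6 after 6 h, and 15.9 and 19.0 after 10 h. Peaks with no word had 23.9 to 25.1 in controls, 21.3 to 23.8 after BDNF and 24.0 to 25.6 after KCl. The medians with 3 or more words were above all 6 controls in each of the 12 stimulated libraries, and the count minimum favours that direction in this class.

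**Figure D2:**
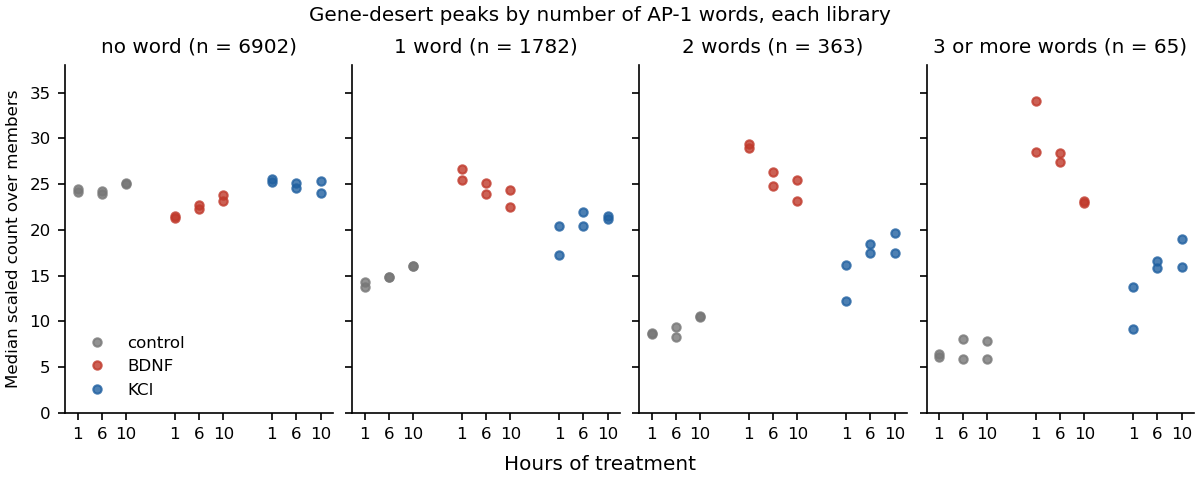
Median scaled count over gene-desert peaks with no, 1, 2, or 3 or more AP-1 words in the central 300 bases, with 1 point per library and the hours of treatment on the horizontal axis. With 3 or more words, the control libraries lie between 5.83 and 8.09 and the BDNF libraries between 22.9 and 34.1.

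Gains were more frequent with C or G than with A or T as the middle base of the word. Peaks with C or G in the middle were gained after 1 h of BDNF in 54.6% of 1441 cases, and peaks whose words all had A or T in 27.7% of 769 cases. With 10 h of KCl these shares were 27.6% and 16.3%. Peaks with words of both kinds were counted with C or G, so the number of words was not held equal between the classes. The count minimum bears on these shares too, and how many peaks of each class reached it in controls alone was not computed. Words with C or G were also placed near the centre of gained peaks. Of the 957 such words in peaks gained after 1 h of BDNF, 54.6% lay within 50 bases of the centre, against 45.5% of the 694 in the remaining gene-desert peaks.

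**Figure D3:**
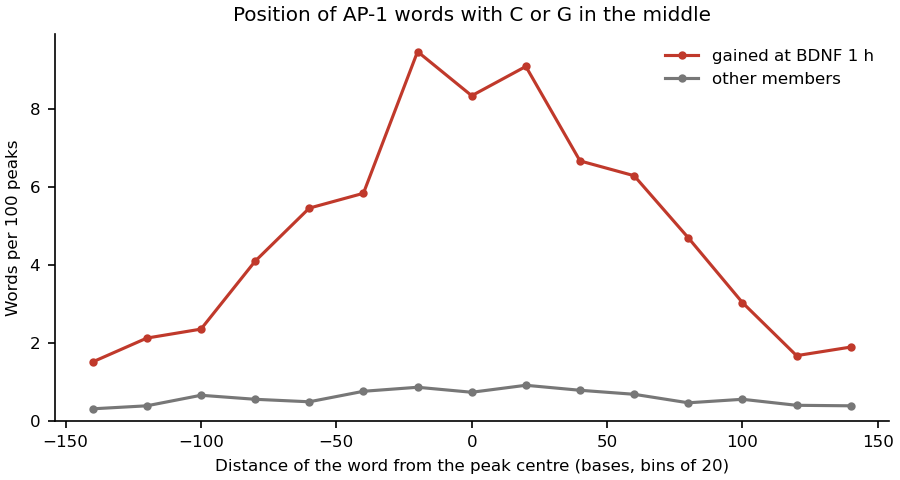
Number of AP-1 words with C or G in the middle per 100 gene-desert peaks, in bins of 20 bases around the peak centre, for the peaks gained after 1 h of BDNF (red) and for the remaining ones (grey). The red line reaches 9.46 per 100 peaks near the centre and falls to 1.51 at the edge, while the grey line stays between 0.308 and 0.911.

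A further 10 motifs were searched on both strands in the same windows. The homeobox word TAATTA was found in 21.4% of gene-desert peaks and 12.6% of all tested peaks, the bHLH word CAGATGG in 13.0% and 10.2%, the POU word ATGCAAAT in 6.75% and 4.23%, the SOX word ACAATGG in 6.07% and 4.5%, and the MEF2 motif in 6.99% and 4.59%. The RFX word GTTGCCATG was alike at 1.77% and 1.79%. The motif of CTCF, a protein that holds chromatin loops, was rarer in gene-desert peaks, at 1.33% against 3.81%. The same was seen for the ETS word CCGGAAGT at 0.176% against 1.76%, the CRE word TGACGTCA at 0.219% against 0.999% and the EGR word GCGTGGGCG at 0.0329% against 0.435%, which are known from promoters.

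BDNF and KCl were then compared directly at each time. At 1 h, 768 gene-desert peaks were more accessible with BDNF (8.43%, against 8.48% of all tested peaks) and 858 were more accessible with KCl (9.42% against 5.62%). At 6 h these numbers were 170 (1.87% against 2.02%) and 188 (2.06% against 1.36%), and at 10 h 103 (1.13% against 1.07%) and 101 (1.11% against 0.811%). The larger number on the KCl side at 1 h depended on the fit. Peaks higher with BDNF were 47.2% of the calls there, and 50.1 to 64.8% under all 7 alternatives of scaling, test, filter and threshold. AP-1 words were found in 71.4% of the peaks higher with BDNF at 1 h and in 5.83% of those higher with KCl. At 10 h these shares were 56.3% and 19.8%. The direct counts depended on single libraries. Without library B of 1 h of KCl 501 peaks were called at 1 h in place of 1626, and without library A or B of 1 h of BDNF 770 or 730. Leaving out any one of the 4 libraries lowered the 358 calls at 6 h to between 69 and 161 and the 204 calls at 10 h to between 31 and 100.

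The peaks that were higher with KCl held other words. MEF2 factors are activated by calcium entry in neurons. Their motif was found in 19.7% of the gene-desert peaks higher with KCl at 6 h and 15.8% at 10 h, against 1.76% and 4.85% of those higher with BDNF and 6.99% of all gene-desert peaks. Of the other tested peaks higher with KCl at these times, 12.6% and 14.6% held it. Among the 497 gene-desert peaks with a MEF2 motif and no AP-1 word, 39 were gained after 10 h of KCl (7.85%) and 16 after 10 h of BDNF (3.22%), where all 6902 peaks without the AP-1 word had 3.56% and 2.98%. At 6 h the direct test called 32 of these 497 higher with KCl (6.44%, against 2.41% of all peaks without the AP-1 word). It called 1 higher with BDNF (0.201% against 0.884%). Of the 137 peaks with an RFX word and no AP-1 word, 34 (24.8%) were higher with KCl than with BDNF at 1 h, against 11.7% of all peaks without the AP-1 word. Of the same 137 peaks, 15 were gained after 1 h of KCl (10.9% against 4.32%) and 4 after 1 h of BDNF (2.92% against 4.65%). None of the 108 peaks with a CTCF motif and no AP-1 word was gained in any of the 6 comparisons. Of all peaks without the AP-1 word, 2.98 to 4.65% were gained per comparison. Closing after 1 h of BDNF were 8 of the 108 (7.41%, against 10.7% of all peaks without the AP-1 word). After 1 h of KCl 6 were closing (5.56% against 1.85%), and the median log2 fold change of the 108 peaks was -0.45.

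Within a stimulus, few gene-desert peaks differed between 10 h and 1 h. With BDNF, 50 were higher at 10 h (0.549%, against 0.27% of all tested peaks) and 30 were lower (0.329% against 0.656%). With KCl, 125 were higher (1.37% against 0.917%) and 38 were lower (0.417% against 0.585%). These counts rested on single libraries, since without library B of 1 h of KCl 1 peak was called in place of 163, without library A of 10 h of KCl 11 were called, and without any one of the 4 BDNF libraries 10 to 48 were called in place of 80. Between silenced controls, edgeR's test called 0 gene-desert peaks at 6 h against 1 h (495 at an unadjusted p below 0.05) and 2 at 10 h against 1 h (779 at an unadjusted p below 0.05). The control libraries of 10 h had higher medians than those of 1 h at peaks with no, 1 or 2 AP-1 words. With 1 word the medians were 16 in both against 14.3 and 13.7 scaled counts. With 2 words they were 10.6 and 10.5 against 8.6 and 8.74. With no word they reached 25.1 at 10 h and 24.5 at 1 h. With 3 or more words the 2 times overlapped, with 5.9 and 7.79 at 10 h against 6.39 and 6.11 at 1 h.

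The peak with the largest rise after 1 h of BDNF lay inside the gene Dlgap2, which encodes a scaffold protein of the postsynaptic density, 289 kb from its start. Its scaled count was 1.22 to 8.88 in the 6 controls (median 4.74) and 111.5 and 109.8 after 1 h of BDNF, a log2 fold change of 4.34 ± 0.33 (SE). Later BDNF libraries had 79.4 and 38.3 (6 h), then 25.3 and 21.3 (10 h). The KCl libraries had 26.5 and 20.9 (1 h), 23.7 and 7.48 (6 h), and 20.1 and 20.7 (10 h). The peak was thus highest early with BDNF, and its fall from 1 h to 10 h of BDNF was called (log2 difference -2.25 ± 0.4, edgeR adjusted p = 0.000506). The peak was named for its rise at 1 h, and that choice favours a later fall.

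A peak at chr13:15777717-15778167 stayed open for the whole course of BDNF and was not called with KCl. It lay outside genes, 234 kb from Inhba, which encodes a subunit of activin A, and 314 kb from Gli3. Controls had 2.1 to 7.49 scaled counts, and the BDNF libraries 73.2 and 73.5 (1 h), 66.7 and 69.9 (6 h), and 63.0 and 62.9 (10 h). The KCl libraries had 8.51 and 5.73 (1 h), 8.72 and 10.0 (6 h), and 11.7 and 9.31 (10 h), with an adjusted p of 0.567, 0.361 and 0.169 against controls. At 1 h the direct difference between BDNF and KCl was 3.38 ± 0.43 on the log2 scale (adjusted p = 1.32e-09). Inhba RNA did not follow this course. It was 41.5 to 58.9 normalised reads in controls, rose to 95.8 and 88.5 after 1 h of BDNF (log2 fold change 0.91 ± 0.19, limma adjusted p = 0.000578), was 38.4 and 34.1 at 10 h of BDNF (adjusted p = 0.0919), fell to 34.6 and 21.4 after 1 h of KCl and rose to 118.6 and 91.5 after 10 h of KCl.

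The Nkain3 peak, 417 kb from its nearest start and outside genes, opened with both stimuli but in opposite order. Its controls were 1.24 to 6.01. BDNF gave 59.2 and 62.1 (1 h), 42.1 and 34.9 (6 h), then 25 and 25.9 (10 h), while KCl gave 22.2 and 8.53 (1 h), 31.5 and 22.5 (6 h), then 41.6 and 34.6 (10 h). All 12 stimulated libraries lay above the controls. The difference between 10 h and 1 h was not called for either stimulus (adjusted p = 0.177 with BDNF and 0.109 with KCl).

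The Elmo1 peak, inside a gene whose product acts with Dock proteins to activate Rac, had the largest rise after 1 h of KCl, with 39.3 and 37.0 scaled counts against 3.04 to 10.4 in controls (log2 fold change 2.77 ± 0.35). BDNF gave 69.5 and 65.2 at that time, and the direct difference was not called (0.82 ± 0.35, adjusted p = 0.129). A peak 754 kb from Mms22l, at chr4:23742314-23742631, held no AP-1 word in the whole peak and had the largest rise at 6 h of KCl. Its controls were 2.67 to 8.88, KCl gave 32.8 and 55.1 (6 h), then 29.7 and 23.8 (10 h), and the 6 BDNF libraries lay between 3.78 and 12.2 and were not called.

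**Figure D4:**
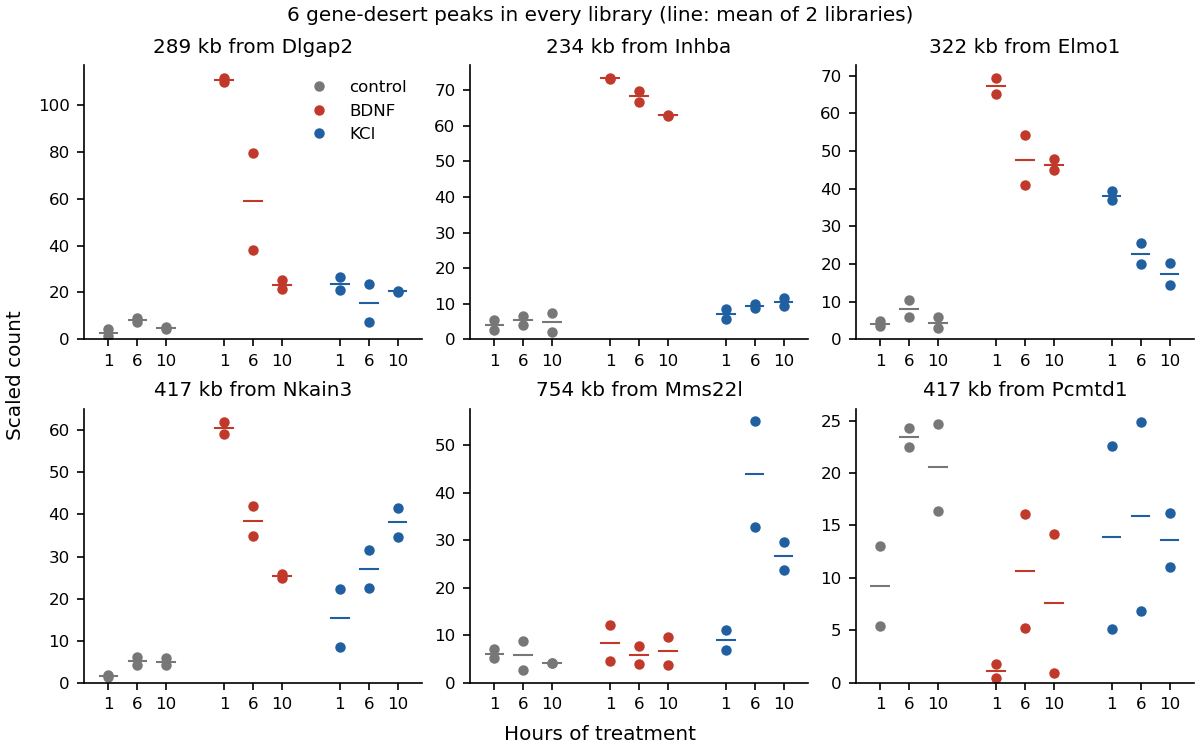
Scaled counts of 6 gene-desert peaks in each of the 18 libraries by hours of treatment, named by distance to the nearest coding gene (points, libraries; lines, mean of the 2 libraries of a group). The Inhba peak stays between 62.9 and 73.5 in the BDNF libraries, and the Mms22l peak rises above 20 only after 6 and 10 h of KCl.

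The other large rises were of the same kind. A peak inside Csmd3, 245 kb from its start, rose from 3.35 to 12.0 in controls to 93.5 and 119.0 after 6 h of BDNF. Peaks 504 kb from Frg1 and inside Pcdh15, 306 kb from its start, had log2 fold changes of 3.87 ± 0.35 at 6 h and 3.72 ± 0.43 at 10 h of BDNF. The Csmd3, Frg1 and Pcdh15 peaks were also gained after 1, 6 and 10 h of KCl. With KCl, peaks 278 kb from Aldoart1 and 284 kb from Mmp16 rose at 1 h (2.51 ± 0.61 and 2.48 ± 0.47), a peak 1432 kb from B3galt2 rose at 6 h (2.95 ± 0.58), and peaks 305 kb from Zfp64 and 451 kb from the ephrin receptor gene Epha3 rose at 10 h (2.97 ± 0.47 and 2.95 ± 0.33). Each of these KCl peaks was also gained after 1 h of BDNF. In the same order, their log2 fold changes there were 2.79 ± 0.57, 3.38 ± 0.43, 2.04 ± 0.56, 3.4 ± 0.44 and 3.25 ± 0.31. The Aldoart1 peak had only 1 to 3 reads in each control library, so its fold is imprecise. All of these peaks held at least 1 AP-1 word. The peak with the largest excess of BDNF over KCl at 1 h lay 285 kb from Nebl, with 54.1 and 54.9 scaled counts with BDNF, 2.54 and 3.54 with KCl and 1.17 to 10.7 in controls.

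The largest falls were of weak peaks, and most held no AP-1 word. The Pcmtd1 peak, in the body of the noncoding gene Gm30414, had 5.37 to 24.7 scaled counts in controls. After 1 h of BDNF it had 1.79 and 0.454 (log2 fold change -3.95 ± 0.73). These were 3 reads and 1 read against 3 to 18 per control library, so the separation from the controls held only after scaling. With 1 h of KCl the peak had 5.16 and 22.6, so that the 2 KCl libraries spanned most of the control range. A peak 209 kb from Krr1 had 1.94 to 35.4 in controls and 1.2 and 1.17 after 6 h of BDNF. In reads these were 1 to 16 per control library against 2 and 3, so this peak too was separated only after scaling. A peak 460 kb from Depdc1a had 8.15 to 18 in controls and 3.44 and 0.683 after 1 h of KCl. At the peaks with the largest fall at 10 h of BDNF, over 1000 kb from Pik3c3, and at 10 h of KCl, 250 kb from Olfm4, both stimulated libraries were at 1 read, the lowest value in the table, against 4 to 16 and 6 to 14 reads per control library. The peak with the largest fall at 6 h of KCl, 787 kb from Myom2, held 1 AP-1 word and had 2 reads and 1 read against 4 to 17 in controls. No fold is given for these 3 peaks.

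The highest peaks in silenced neurons sat at noncoding starts or in a gene body, and their fold changes were small. The peak at chr1:7397457-7398628, 173 bp from the start of the noncoding gene Gm26901, had 845.3 to 1031 scaled counts in controls and 778.5 to 1106 in the 12 stimulated libraries, and was called in none of the 6 comparisons, although with TMM factors it was called lower at 1 h of KCl (log2 fold change -0.37, adjusted p = 0.000646). Gm26901 RNA was low, at 12.1 to 31.2 normalised reads in controls. The peak at the start of A230028O05Rik had 334.2 to 387.5 in controls and was called lower only at 6 h of BDNF (log2 fold change -0.31 ± 0.1). A peak inside Camk1d, a calcium-dependent kinase gene, had 269.7 to 320.3 in controls and 379.3 and 388.2 after 1 h of KCl (0.37 ± 0.1), but this rise was not called with TMM factors (0.19, adjusted p = 0.274) or without either KCl library. Its rise was larger after 6 h of KCl, with 416.2 and 466.8 (0.55 ± 0.11, edgeR adjusted p = 0.000308). It was also called after 10 h of KCl (0.29 ± 0.11). The direct test called this peak higher with KCl than with BDNF at 1, 6 and 10 h.

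The peak farthest from a coding start lay 2675 kb from Pcdh20, and was closing after 1 h of BDNF, with 3.8 and 0.823 scaled counts against 7.02 to 24.2 in controls. That call was lost with TMM factors (log2 fold change -1.45, edgeR adjusted p = 0.127). A second peak in the same interval, 2425 kb from Pcdh9, had 33.2 to 59.0 in controls and 28.0 and 18.7 after 1 h of BDNF (-0.87 ± 0.32), and lost its call without either BDNF library. The next farthest, 2474 kb from Cdh20, was called in no comparison.

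The 5 intervals with the most gene-desert peaks were flanked by Zeb2 and Acvr2a on chromosome 2 (3697 kb, 49 peaks), Pcdh20 and Pcdh9 on chromosome 14 (5417 kb, 48 peaks), Celf4 and Pik3c3 on chromosome 18 (4519 kb, 47 peaks), Slc10a2 and Efnb2 on chromosome 8 (3556 kb, 47 peaks), and Olfm4 and Pcdh17 on chromosome 14 (4443 kb, 46 peaks). After 1 h of BDNF, where 14.5% of the whole set was gained, 3 peaks were gained and 1 was closing between Zeb2 and Acvr2a, 4 were gained and 10 closing between Pcdh20 and Pcdh9, 6 and 1 between Celf4 and Pik3c3, 10 and 2 between Slc10a2 and Efnb2, and 9 and 3 between Olfm4 and Pcdh17. After 10 h of KCl, 3, 4, 2, 3 and 7 peaks were gained in the same order. Differences between intervals were not tested. Gained and closing peaks lay in the same interval in 235 of the 355 intervals with at least 10 peaks after 1 h of BDNF, and 49 of the 355 held no gained peak. The numbers expected from the shares over the whole set, 14.5% gained and 8.51% closing, were not computed. An interval with many peaks would often hold both, so these counts do not show that the 2 kinds lie together.

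**Figure D5:**
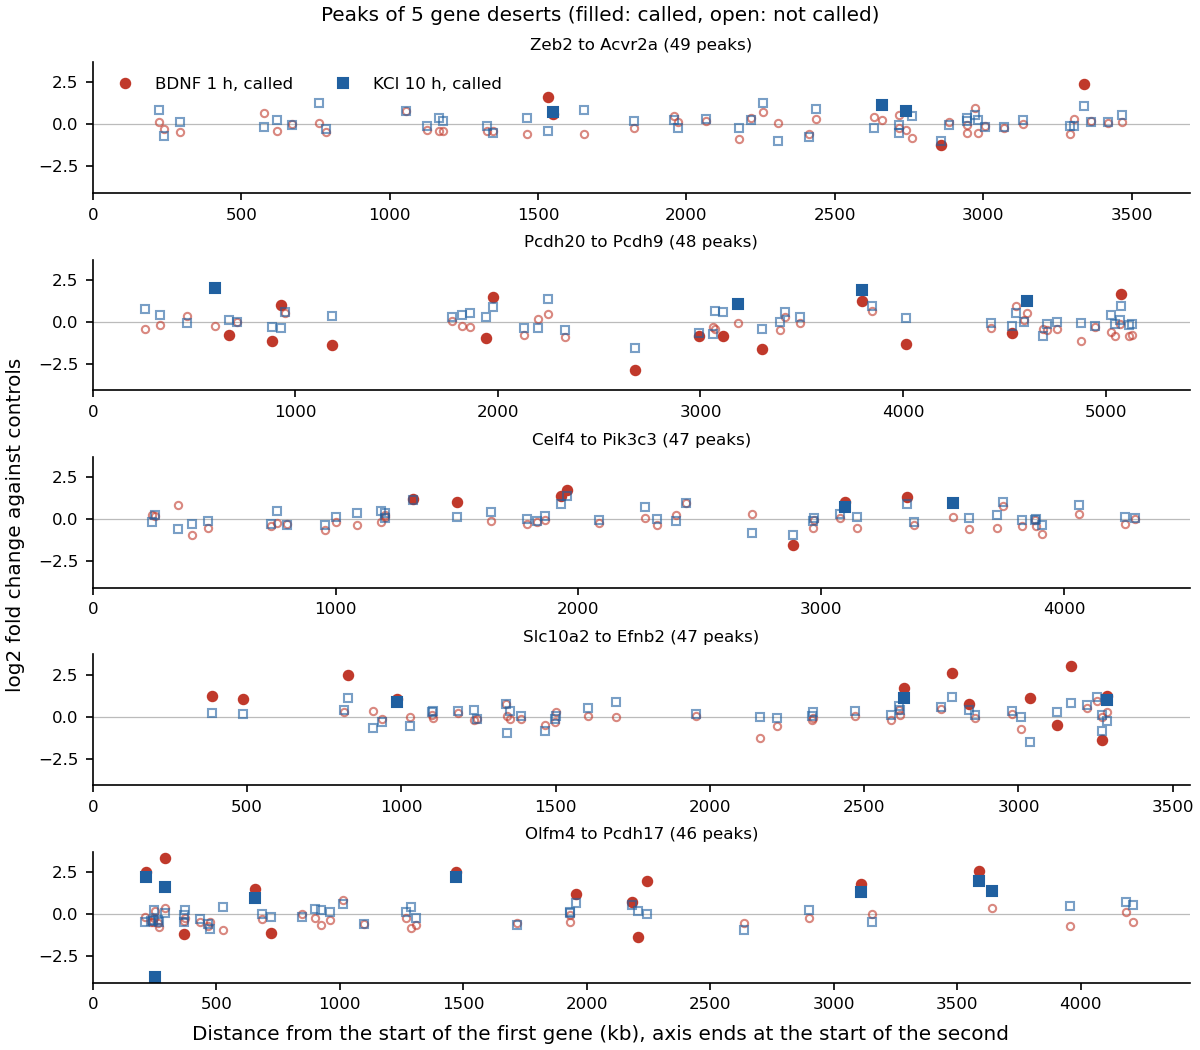
Log2 fold change of each gene-desert peak in the 5 most populated intervals, against distance in kb from the start of the first flanking gene, after 1 h of BDNF (red circles) and 10 h of KCl (blue squares), with called peaks filled. The interval between Olfm4 and Pcdh17 holds 9 peaks gained with BDNF and 7 gained with KCl, and the one between Zeb2 and Acvr2a holds 3 and 3.

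RNA of some flanking genes moved in several of these intervals, but such calls were common among all genes. Of all 16209 tested genes, 21.3% were higher and 19.0% lower after 1 h of BDNF. With KCl these shares were 26.5% and 28.2% at 1 h, and 29.0% and 28.2% at 10 h. Celf4 and Pik3c3 changed little, with log2 fold changes of -0.12 to 0.22 and -0.2 to 0.28 over the 6 comparisons. Zeb2, a transcription factor of neural development, fell in all 6 comparisons, from 2749 to 3244 normalised reads in controls to 2143 and 2089 after 1 h of BDNF (log2 fold change -0.55 ± 0.07). Pcdh20 and Pcdh9, cell adhesion genes of the protocadherin family, both rose late with KCl. Pcdh20 had 191.8 to 237.9 in controls, 83.6 and 87.8 after 1 h of BDNF, and 741.9 and 629.5 after 10 h of KCl (1.61 ± 0.14). Pcdh9 had 460.4 to 571.5 in controls and 1156 and 1223 after 10 h of KCl (1.24 ± 0.12). Efnb2, which encodes an ephrin ligand, had 3688 to 4111 in controls and 7253 and 6508 after 1 h of KCl (0.83 ± 0.06).

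RNA of the genes nearest to gained peaks was called at shares close to those next to any gene-desert peak. The share of higher genes was above that reference in 3 of the 6 comparisons and below it in 3, the difference was not tested, and the reference includes the genes in question. The 9112 peaks had 1552 nearest coding genes, of which 1201 were tested for RNA with limma. After 1 h of BDNF, 80 of the 591 tested genes next to a gained peak were higher (13.5%) and 143 were lower (24.2%), against 174 (14.5%) and 300 of 1201 for the genes next to any gene-desert peak and 21.3% and 19.0% of all 16209 genes. After 6 h of BDNF, 24.1% were higher and 33.7% lower, against 23.3% and 32.0% next to any gene-desert peak and 22.1% and 21.1% of all genes. At 10 h of BDNF, 21.9% were higher and 30.3% lower, against 22.2% and 29.7%, and 21.1% and 19.5% of all genes. Genes next to gene-desert peaks were thus lower after BDNF at a share above that of all genes at each of the 3 times.

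With KCl the shares were 28.3% higher and 26.4% lower at 1 h, against 29.1% and 24.9% next to any gene-desert peak and 26.5% and 28.2% of all genes. At 6 h they were 36.4% and 34.6%, against 35.2% and 34.3%, and 33.4% and 33.1% of all genes. At 10 h they were 37.2% and 25.7%, against 35.1% and 27.6%, and 29.0% and 28.2% of all genes. Nearest genes at these distances are a naming rule, and peaks of 1 interval share the same 2 genes. Single genes moved in either direction beside a gained peak. Csmd3 RNA fell after 6 h of BDNF, from 177.3 to 222.2 normalised reads in controls to 89.2 and 75.9, while the peak in its body rose. B3galt2 RNA rose after 6 h of KCl, from 715.0 to 827.4 in controls to 1380 and 1287, as the peak 1432 kb away rose. That peak was also gained after 1 h (2.04 ± 0.56) and 10 h of BDNF (2.26 ± 0.59), when B3galt2 RNA was lower (-1.52 ± 0.08 and -0.59 ± 0.08). After 1 h of KCl the peak was gained (1.76 ± 0.61) and B3galt2 RNA was higher (0.88 ± 0.08). After 10 h of KCl B3galt2 RNA was higher (1.03 ± 0.08) and the peak was not called. At 6 h of BDNF the RNA was lower (-0.86 ± 0.08) and the peak was not called. Dlgap2 RNA after 1 h of BDNF was 124.7 and 154.2, within the control range of 113.6 to 162.5, at the time of the largest rise of its peak.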

How the data were processed

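ATAC-seq and RNA-seq were measured in 18 libraries each. Per the study's methods, the authors mapped ATAC reads with bowtie2 (mm10), used MACS2 for peaks in each sample, kept peaks found in 2 or more samples and counted reads with DiffBind. The deposited ATAC values were treated as counts: the table is named as normalised, but it holds whole numbers with unequal library totals, and if the authors had scaled them the fitted values here would carry that scaling too. Their minimum is 1, so 0 reads and 1 read cannot be told apart. Depth was 1.24 to 6.24 M reads in peaks. The deposited RNA values are a signal, namely gene counts from TopHat2 alignments that the authors divided by DESeq2 size factors; whole reads were recovered for 100% of values within 0.01 (8.51 to 36.7 M reads per library). The authors' tables of their own comparisons (log2 fold changes, p-values) were not used.

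ATAC counts of peaks with a mean of at least 10 were tested with edgeR 4.0.16 (quasi-likelihood, robust, 7 levels, with the 6 controls as 1 level as the study pooled them) with LOESS offsets (span 0.3) and Benjamini-Hochberg adjustment at 0.1; SE is the log2 fold change divided by the root of F. RNA was tested with limma 3.58.1 on log2(value + 1) for 16209 genes with a mean of at least 10, so fold changes of low genes are understated. Both fits were tested on simulated data. No libraries were identical; the 2 of an ATAC group differed by a chi-square of 1.99 to 2.55 per degree of freedom. ATAC columns carry the group only, so the letters A and B name columns and pair nothing. Distances, contexts, motifs and sequences came from GENCODE M21 and the GRCm38.p6 sequence. Motifs were searched in the central 300 bases. The sequence of 1 further named peak is not reported here.

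Named peaks were, per comparison with controls, the 3 largest rises and the largest fall among called peaks whose 2 stimulated libraries lay outside the range of the 6 controls, the 3 farthest from a coding start, the 3 highest in controls, and the extremes of BDNF against KCl at 1 h; also the 5 intervals with the most peaks and the nearest or flanking coding genes. The peaks and lists were chosen with earlier results of these data known. Alternatives were TMM, DESeq2 size factors, GC offsets, DESeq2 1.42.0, limma, no count filter, edgeR on recovered RNA reads, another pseudocount, adjusted p below 0.01, controls of the same time, each library left out, distances of 100 and 500 kb and other motif windows. The split of the AP-1 word by its middle base, the 150 to 250 kb classes, the read share of uncalled peaks and the share of AP-1 peaks that reach the count minimum in controls were chosen after seeing the data.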

Additional observations from a re-analysis of the deposited data

Results flagged for a closer look

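A total of 26 named gene-desert peaks were looked at for a control library that stood apart from the other 5 and for an effect that differed between 10 h and 1 h of the same stimulus. Such a test picks out about 1 group in 20 by chance. At chr4:72574662-72574920, the Aldoart1 peak, control library B of 6 h was highest at 4.91 scaled counts, against 1.43 as the lowest, and at chr16:63412578-63413209, the Epha3 peak, control library A of 1 h was highest at 14.1, against a median of 5.1. In both cases the value was far below the stimulated libraries of the comparison that named the peak. The naming rule itself required those libraries to lie outside the range of the controls. The effect differed with time at 2 peaks by the direct test in edgeR. Each was named for a large rise at 1 of the 2 times compared, so the choice of the peak favoured such a difference. The Dlgap2 peak was lower at 10 h than at 1 h of BDNF (log2 difference -2.25 ± 0.4, adjusted p = 0.000506), and its 1 h and 10 h libraries did not overlap. The Zfp64 peak at chr2:169260644-169260918 was higher at 10 h than at 1 h of KCl (2.32 ± 0.55, adjusted p = 0.0219), with 26.0 and 29.3 against 6.79 and 4.34 scaled counts, whereas BDNF gave 34.1 and 40.6 at 1 h and 10.9 and 20.0 at 10 h.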

How the results depend on the processing

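The share of gained peaks was higher in gene-desert peaks than in the other tested peaks under all 8 alternatives of scaling, test, filter, threshold and controls, in each of the 6 comparisons with controls. The exception among libraries left out was 1 h of KCl without library A (1.26% against 1.3%). The share of closing peaks was higher under all 8 at 1 and 6 h of BDNF, under 2 of 8 at 10 h of BDNF and under 0 of 8 with KCl.

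Counts of called gene-desert peaks moved by over 1.5 times as follows. At an adjusted p below 0.01 they were 1111 (BDNF 1 h), 741 (6 h), 578 (10 h), 130 (KCl 1 h), 265 (6 h), 339 (10 h), 525, 49 and 14 (BDNF against KCl at 1, 6 and 10 h), 8 (BDNF 10 h against 1 h) and 13 (KCl 10 h against 1 h). With controls of the same time they were 863 and 554 at 6 and 10 h of BDNF and 365, 471 and 354 for KCl. DESeq2 size factors gave 1306 and 1500 at 6 and 10 h of KCl and 283 for KCl 10 h against 1 h, and TMM gave 1345, 1546 and 286. limma gave 332 at 1 h of KCl, 866 for BDNF against KCl at 1 h, 46 for BDNF 10 h against 1 h and 14 for KCl 10 h against 1 h. DESeq2 gave 130 for BDNF against KCl at 10 h and 51 for BDNF 10 h against 1 h. The cause was not tested, except that the stricter threshold and the smaller control group lower counts by construction. Without 1 library, counts were 1106 to 2142, 715 to 1393 and 589 to 1195 for BDNF at 1, 6 and 10 h, 143 to 689, 195 to 884 and 341 to 948 for KCl, 501 to 1235, 69 to 161 and 31 to 100 for BDNF against KCl, 10 to 48 for BDNF and 1 to 102 for KCl at 10 h against 1 h; the lone library was then assumed to vary like the other groups. For nearest genes the RNA calls were 142 to 173, 213 to 218 and 153 to 168 for BDNF and 138 to 141, 242 to 252 and 220 to 223 for KCl without 1 library, against 223, 290 and 236 and 176, 281 and 257 with all; library A of 1 h and library B of 10 h of BDNF moved them by over 1.5 times. edgeR on the recovered reads gave 215, 292, 236, 174, 278 and 257.

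With a limit of 500 kb, called peaks were 24.5%, 16.4% and 13.6% for BDNF (23.0%, 14.7% and 12.3% at 200 kb) and 6.44%, 10.1% and 11.0% for KCl (7.53%, 9.05% and 9.71%). The AP-1 word was in 16.1% of central 150 bases, 27.0% of whole peaks, 15.8% with C or G and 10.7% with A or T in the middle. The mean share of reads in gene-desert peaks exceeded that of controls by 0.71 percentage points for BDNF and 1.43 for KCl, and by -0.13 and 0.61 without called peaks.

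The split between gained and closing also depended on the fit. Gains were 63.0% of calls at 1 h of BDNF and 73.3% with size factors, 74.3% with TMM and 75.5% with DESeq2. Gains were 72.5% of calls for BDNF 10 h against 1 h with TMM, 36.8% with GC offsets and 62.5% with LOESS offsets, and 58.2% of calls for BDNF against KCl at 6 h with GC offsets against 47.5%. limma gave 73.5% against 84.0% at 10 h of BDNF, 68.9% against 85.7% at 6 h of KCl and 38.3% against 50.5% for BDNF against KCl at 10 h.

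Of the named peaks, signs turned only for 4 peaks that were not called in the comparison concerned or were highest in controls. The Cdh20 peak had 0.11 at 1 h of BDNF without library A and ranged from -2.74 to 0.11 without 1 library, and had -0.01 with GC offsets, -0.49 with controls of the same time and -0.15 without library B at 1 h of KCl (range without 1 library -0.15 to 0.32). The Gm26901 peak had 0.05 at 1 h of BDNF and 0.03 at 1 h of KCl with controls of the same time and 0.0 at 1 h of BDNF without control library B of 10 h (range -0.05 to 0.0). The A230028O05Rik peak had -0.0 with DESeq2 size factors and with DESeq2 at 1 h of KCl, and the Camk1d peak had 0.1 at 1 h of BDNF without library B (range -0.3 to 0.1). No paired analysis was possible because the ATAC columns carry no replicate number. At 1.24 M reads in peaks, library B of 6 h of KCl left many of these peaks with few reads.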

Other observations

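Genes near these peaks were lower with BDNF at a share above all genes, and a few of them were opposite between the stimuli. B3galt2, which encodes a galactosyltransferase, had 715.0 to 827.4 normalised reads in controls, 272.2 and 260.3 after 1 h of BDNF (log2 fold change -1.52 ± 0.08) and 1602 and 1254 after 1 h of KCl (0.88 ± 0.08), both past the threshold in limma. Elmo1 had 746.6 to 967.0 in controls, 1421 and 1343 after 6 h of KCl (0.67 ± 0.09) and 763.0 and 721.9 after 6 h of BDNF (-0.23 ± 0.09).

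Among gene-desert peaks with a bHLH word and no AP-1 word (930 peaks), 127 were closing after 1 h of BDNF (13.7%, against 10.7% of all 6902 peaks without the AP-1 word, 14.7% with a MEF2 motif and 11.3% with a POU word). Gained at that time were 46 (4.95%, against 4.65% of all peaks without the AP-1 word). After 10 h of BDNF 21 were closing (2.26% against 2.42%) and 27 gained (2.9% against 2.98%). Of the 1553 with a homeobox word and no AP-1 word, 218 (14.0%) were higher with KCl than with BDNF at 1 h and 39 (2.51%) were lower. Over all peaks without the AP-1 word these shares were 11.7% and 3.19%. The share higher with KCl was 15.7% with a MEF2 motif, 14.4% with a POU word and 12.8% with a SOX word, and differences between words were not tested.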
